A study of Homo sapiens with 6 samples.

Results

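The S100 proteins are small calcium-binding proteins, each built around a pair of EF-hand loops, the helix-loop-helix fold that holds a calcium ion. Most work as dimers: calcium opens a face of the dimer that then binds a target protein, such as an annexin at the membrane or a cytoskeletal protein. Some members, S100A8 and S100A9 among them, are also released from cells and signal through receptors such as AGER (the receptor for advanced glycation end-products, RAGE) and TLR4. In human epithelia the family is known for roles in motility, membrane repair and differentiation, and most of its genes sit together in the epidermal differentiation region of chromosome 1q21.

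The genes described were S100A2, S100A3, S100A4, S100A6, S100A8, S100A9, S100A10, S100A11, S100A14 and S100P. They were chosen by symbol from a list of the family, with earlier results of these data known. All 10 were among the 28008 genes of the count table. They were measured by RNA-Seq in DU-145-DR/tet-MUC1shRNA cells. DU-145 is a human prostate cancer line, DU-145-DR was selected from it for resistance to docetaxel (DTX), and this derivative carries a tetracycline-inducible hairpin against MUC1 and was selected in puromycin. The 3 DOX-negative libraries came from cells given DMSO as the vehicle, and the 3 DOX-positive libraries from cells given 500 ng/ml doxycycline (DOX) for 7 days. DTX resistance and the vector were shared by both groups as the study describes them, although in the labels only DOX-negative samples are called resistant and only DOX-positive samples are said to hold the hairpin. No DOX-treated library with a control hairpin was analysed here, so DOX and the hairpin cannot be told apart.

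Library totals ran from 15092691 to 23243713 counts. Counts of MUC1, the targeted gene, were 387, 484 and 396 without DOX and 75, 74 and 66 with it, a log2 fold change of -2.52 (edgeR, SE 0.146, adjusted p = 4.47e-11). The count of KLK3, which marks luminal prostate cells, was 0 in every library, and the epithelial markers EPCAM, CDH1, KRT8 and KRT18 were present. All 4 rose (edgeR adjusted p under 0.05), by 0.81 to 1.43 on the log2 scale, beside 13% of all genes tested that were called higher. Whether that rise had a part in the S100 values was not tested. Myeloid marker genes, the other cells in which S100A8 and S100A9 are abundant, summed to between 6 and 17 counts a library over 7 genes. In a bulk sample, fewer cells that make a transcript and less transcript per cell cannot be told apart.

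Of the genes, 9 lie on chromosome 1q21 and S100P lies on chromosome 4. On RefSeq's GRCh38.p14, the chromosome 1 members span 1.63 Mb (chr1:151982915-153616325), with S100A10 (chr1:151982915-151993859, minus strand) and S100A11 (chr1:152032506-152037004, minus strand) at one end. The other 7 are packed within 0.258 Mb, among them S100A6 (chr1:153534599-153535991, minus strand), S100A4 (chr1:153543621-153545806, minus strand) and S100A3 (chr1:153547329-153549258, minus strand). S100P is at chr4:6693878-6697170 on the plus strand.

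The promoters of these genes differ in base composition, and the 3 with the most CpG dinucleotides belong to the 3 most abundant transcripts. This is a description of 10 genes and was not tested. RefSeq promoter windows, from 250 bases before to 50 bases after a start site, were matched for 10 of 10 genes (13 windows). The ratio of observed to expected CpG dinucleotides was 0.866 for S100A6, 0.840 for S100A10 and 0.781 for S100A11, against a median of 0.579 over all 35116 windows of the same length. The other 7 genes had ratios between 0.0977 and 0.293. GC content was 69.3%, 71.7% and 65.3% in the S100A6, S100A10 and S100A11 windows.

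The 3 CpG-rich promoters each held the GC box core GGGCGG, the letters known as a binding site for SP-family factors, searched on both strands. These letters were in the windows of 5 of the 10 genes (also S100A3 and S100A9) and in 45.0% of all windows. Stretches of 30 bases around the box are shown for the 3 abundant transcripts, 5′ to 3′ on the gene's strand, with the box in capitals.
S100A6 (chr1:153536049-153536078): cgggacttgggcGGGCGGggtgggcttggc
S100A10 (chr1:151994009-151994038): acgctctgtctgGGGCGGgcgaggcctctg
S100A11 (chr1:152037055-152037084): ggaggcggggagGGGCGGggcaggcgcgga

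The TATA box letters TATAAA were in the windows of 4 genes, S100A4, S100A8, S100A9 and S100P, against 11.5% of all windows. In all 4 the match began between 28 and 31 bases before the annotated start site, the place where a TATA box is usually found. These genes are shown because 3 of them were nearly silent in the cells and the other, S100A4, was low. S100A14 was nearly silent without these letters. Outside the set, S100A13 held them and was expressed, and S100A7, S100A7A, S100A12, S100G and S100Z held them and were nearly silent. S100A1 and S100A5 were nearly silent without them, and S100A16 was expressed without them.
S100A4 (chr1:153545820-153545849): gcctggctggggTATAAAtaggtcagacct
S100A8 (chr1:153391085-153391114): aagcctaaccgcTATAAAaaggagctgcct
S100A9 (chr1:153357813-153357842): tcaggagctgccTATAAAtgccgagcctgc
S100P (chr4:6693838-6693867): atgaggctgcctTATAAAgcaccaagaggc

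The AP-1 letters TGANTCA were in the S100A2 and S100A3 windows and in 7.71% of all windows. The E-box letters CACGTG, a site that MYC and related factors can bind, were in the windows of 0 members and in 7.26% of all windows. These matches describe the letters in the windows and do not show that a factor bound there. A gene was counted with a match in any of its windows, whereas the percentages are of single windows. The AP-1 stretches are given with the motif in capitals.
S100A2 (chr1:153565878-153565907): ggagtgggctgTGACTCAcaggcatgtcat
S100A3 (chr1:153549465-153549494): ggaatcaggagTGAGTCActgggctagcat

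The family split into abundant, low and nearly silent transcripts. Levels of different genes were compared in TPM, which scales each transcript by its length and each library to the same total. S100A6 stood first at 915 ± 247 TPM in the DOX-negative libraries and 694 ± 69.3 in the DOX-positive ones (SD, n = 3), ranking between 58 and 67 among all genes of a library. S100A10 followed at 458 ± 143 and 314 ± 43.5 TPM, and S100A11 at 267 ± 85.6 and 190 ± 8.06 TPM. This order, S100A6 over S100A10 over S100A11, held in 6 of 6 libraries. The deposited TPM of every gene moves with 5 short noncoding RNAs that held from 34.4% to 64.4% of a library's TPM, least in DOX-negative replicate 2, where these genes were highest. TPM was therefore used to order genes within a library, and counts to compare the groups.

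After S100A11 the level dropped by a factor of 19.2 or more in every library. S100A4 was at 13.6 ± 4.70 TPM in the DOX-negative libraries, S100A2 at 6.97 ± 1.77 and S100A3 at 3.46 ± 0.278. S100A4 exceeded S100A2 in 5 of 6 libraries, the exception being DOX-positive replicate 3, and S100A2 exceeded S100A3 in 6 of 6. S100A9 was at 1.53 ± 0.795 TPM and S100A14 at 0.301 ± 0.141. S100A3 was above S100A9 in 5 of 6 libraries, so these neighbours in the order were not apart in every library. Within the 10 genes, S100A6, S100A10 and S100A11 held from 98.5% to 99.1% of the counts.

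**Figure D1:**
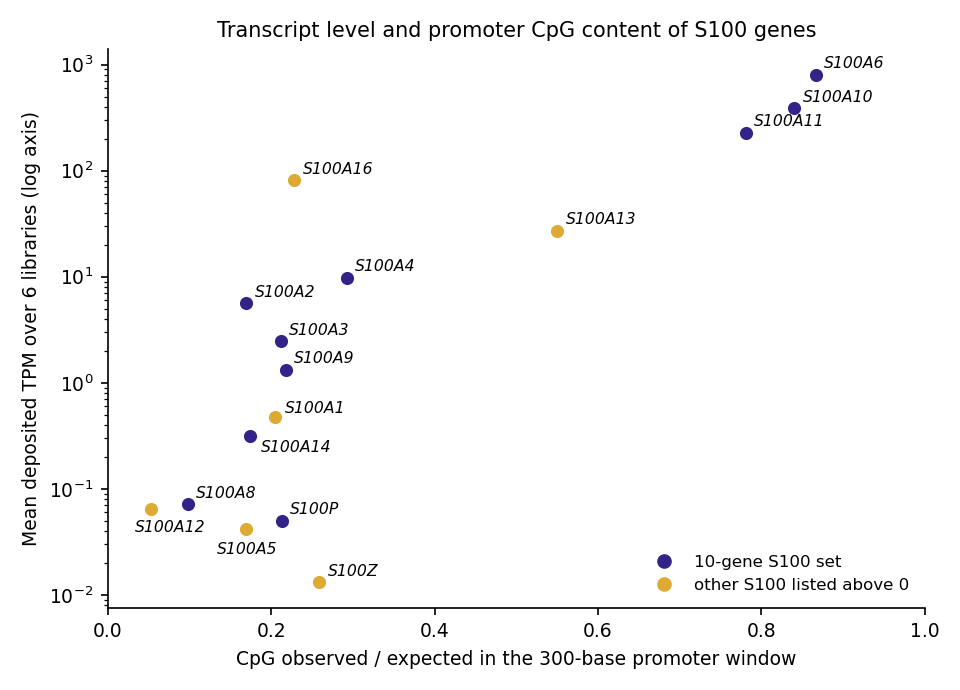
Mean deposited TPM over the 6 libraries (log axis) against the observed to expected CpG ratio of the 300-base RefSeq promoter window, averaged where a gene has several windows. Each point is an S100 gene listed above 0; the 3 members above 100 TPM are the 3 with a ratio of 0.781 or more, while S100A16, outside the 10-gene set, is high with a low ratio.

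No member of the set passed the test for a change with MUC1 silencing. Of the 10 genes, 6 had enough counts to be tested, and 0 of these were called at an edgeR adjusted p under 0.05 (0 higher, 0 lower). Over all 14292 genes tested, 26.7% were called, 13% as higher and 13.7% as lower. Before adjustment, 2 members (S100A3 and S100A4) had a p under 0.05, against 37.9% of all genes, and DESeq2 called 0 members with 1 under 0.05 before adjustment. The groups did not overlap for 1 of the 6 genes, S100A4, against 39.8% of all genes. The median log2 fold change of the 6 was -0.22, beside -0.0034 over all genes tested. It was -0.13 without DOX-positive replicate 2, -0.32 without DOX-positive replicate 3, and -0.12 over the 5 members with at least 10 counts in every library.

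**Figure D2:**
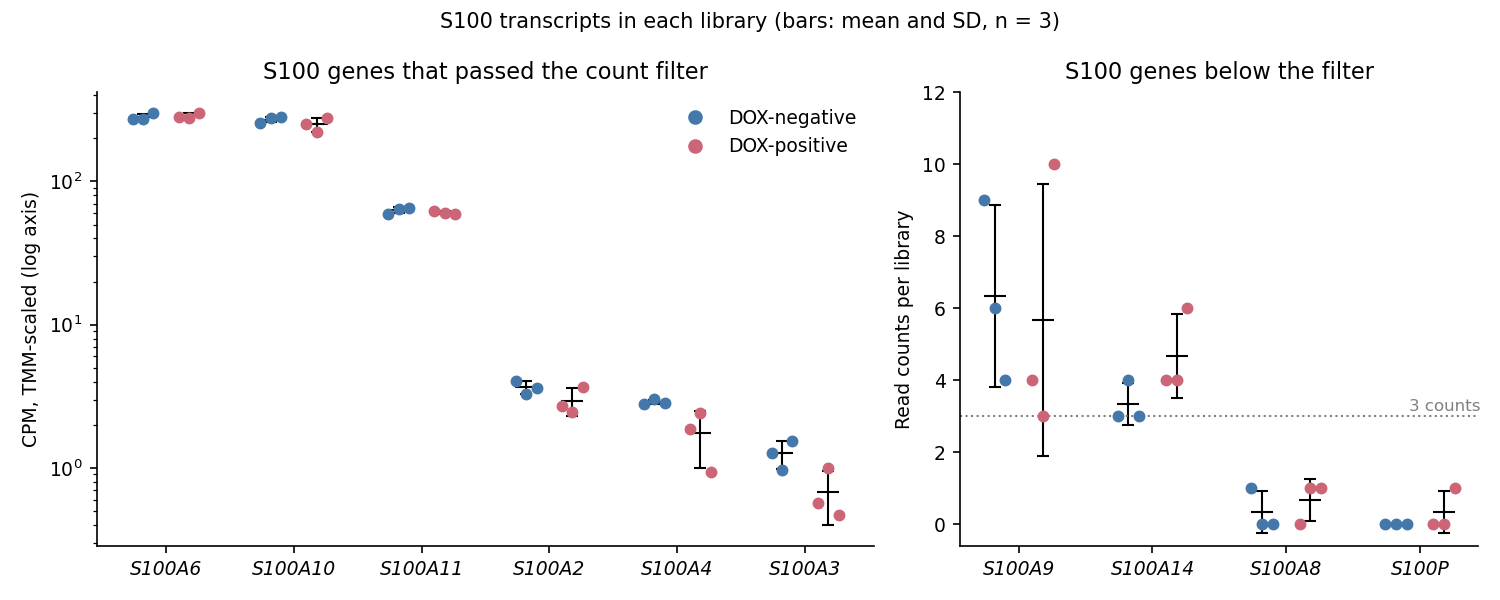
Left, CPM (TMM-scaled, log axis) of the 6 tested S100 genes; right, read counts of the 4 genes with too few reads to test. Each dot is a library, bars give mean and SD (n = 3), and S100A4 is the gene whose DOX-negative and DOX-positive dots do not overlap.

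S100A6 (calcyclin), which binds CACYBP and annexins, was the most abundant member. Its CPM, the count scaled to a common library size with TMM factors, was 272, 273 and 299 without DOX and 280, 276 and 303 with DOX. The values of the groups interleaved. The log2 fold change was 0.023 (SE 0.0637, edgeR adjusted p = 0.836), and its sign turned under another scaling. The 95% interval of the fold ran from 0.927 to 1.11. Without strand in the counting, reads of S100A6 and of an antisense gene that overlaps it by 517 bases (GENCODE 29) cannot be told apart.

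S100A10 (p11), the light chain of the annexin A2 heterotetramer, does not bind calcium, unlike most of the family. It had 257, 275 and 280 CPM without DOX and 252, 221 and 279 CPM with DOX. DOX-positive replicate 3 lay within the DOX-negative range. The other DOX-positive libraries were below that range, and DOX-positive replicate 2 was the lowest. The log2 fold change was -0.11 (SE 0.0730, edgeR adjusted p = 0.281), with a 95% interval of the fold from 0.833 to 1.03.

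S100A11 (calgizzarin), a partner of annexin A1 and annexin A2 in membrane repair, had 59.7, 64.7 and 65.1 CPM in the DOX-negative libraries. The DOX-positive libraries had 62.6, 60.4 and 59.6 CPM, within the same range but for DOX-positive replicate 3, which was just below it. The log2 fold change was -0.053 (SE 0.0741, edgeR adjusted p = 0.648), with a fold between 0.867 and 1.07 at 95%. GENCODE 29 lists 2 pseudogenes named for S100A11 and an overlapping antisense gene, so part of these reads could belong elsewhere. Over S100A6, S100A10 and S100A11, the 95% intervals lie between folds of 0.833 and 1.11.

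S100A4 (metastasin), which binds nonmuscle myosin and is known as a marker of motile, mesenchymal-like cells, was the tested member whose groups did not overlap. Its counts were 51, 59 and 57 without DOX and 43, 46 and 14 with it. In CPM these were 2.81, 3.02 and 2.84 against 1.87, 2.40 and 0.941. All 3 DOX-positive values were below all 3 DOX-negative ones, and DOX-positive replicate 3 was far below the others. The log2 fold change was -0.70 (SE 0.286, 95% interval -1.29 to -0.10), which missed the threshold (edgeR adjusted p = 0.0756). Without DOX-positive replicate 3 it was -0.44 (adjusted p = 0.297), and without DOX-positive replicate 2 it was -0.97 (adjusted p = 0.0235).

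S100A3, a cysteine-rich member best known from the hair cuticle, had counts of 23, 19 and 31 without DOX and of 13, 19 and 7 with it. The CPM values were 1.27, 0.972 and 1.54 against 0.566, 0.993 and 0.471, so the groups overlapped through DOX-positive replicate 2. The log2 fold change was -0.88 (SE 0.394, 95% interval -1.70 to -0.062), with an edgeR adjusted p of 0.104. Without DOX-positive replicate 2 it was -1.25 (adjusted p = 0.0461). Leaving out any other single library gave between -0.70 and -1.03 and no call (edgeR adjusted p from 0.104 to 0.293).

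The S100A3 and S100A4 counts may share reads. In GENCODE 29 the genes overlap on the same strand over 2044 bases, whereas their RefSeq spans do not overlap, and the annotation used for counting is not given in the sources used here. Their summed CPM was 4.07, 3.99 and 4.38 without DOX and 2.44, 3.40 and 1.41 with DOX. The sum was lower in each DOX-positive library than in any DOX-negative library. S100A4 alone already did not overlap, as was so for 39.8% of all genes tested. The sum is therefore no separate evidence of a fall. Both genes were called in a fit that differed in unit, test and filter: limma on the deposited TPM, at log2(TPM + 1) and with a TPM of at least 1 in 3 libraries, called S100A3 (-0.89, adjusted p = 0.0376) and S100A4 (-1.08, adjusted p = 0.0187), although on that scale the median of all genes was itself -0.35. After the TPM was rescaled without the 5 short noncoding RNAs, where that median was -0.024, both stayed called (-0.80 with adjusted p = 0.0322, and -0.81 with adjusted p = 0.0493).

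S100A2, known as a p63 and p53 target in basal epithelium, had counts of 74, 64 and 73 without DOX and of 62, 47 and 55 with it. In CPM these were 4.07, 3.27 and 3.63 against 2.70, 2.46 and 3.70. DOX-positive replicate 3 lay within the DOX-negative range and the other DOX-positive libraries below it. The log2 fold change was -0.33 (SE 0.227, edgeR adjusted p = 0.313), and its 95% interval, -0.80 to 0.14, would hold a sizeable fall as well as no change.

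**Figure D3:**
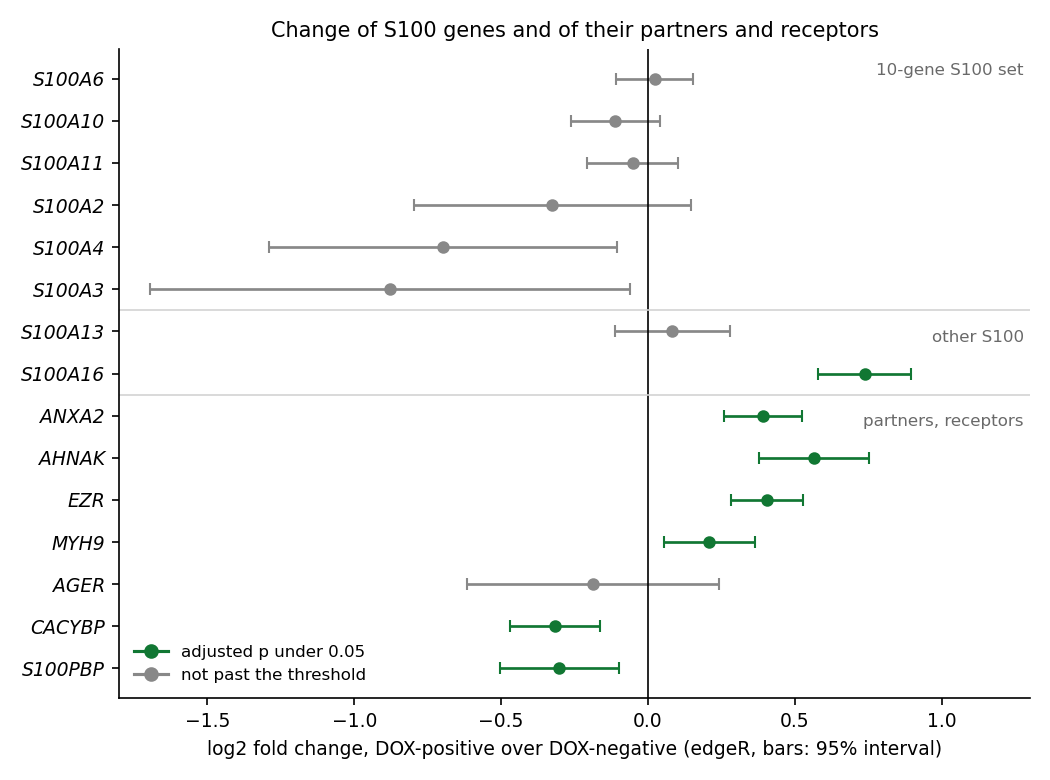
Log2 fold change of DOX-positive over DOX-negative libraries (edgeR) with 95% intervals, for tested S100 genes and for proteins they bind or signal through. Green marks an adjusted p under 0.05; the 6 tested genes of the 10-gene set are all grey, while S100A16, ANXA2, AHNAK and EZR lie to the right of 0.

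The inflammatory and secreted members were at or near the floor. S100A8 and S100A9 form calprotectin, the calcium- and zinc-binding heterodimer of neutrophils that is also induced in stressed epithelium. S100A9 counts were 9, 6 and 4 without DOX and 4, 3 and 10 with it. S100A8 had 1, 0 and 0 counts, then 0, 1 and 1. With S100A8 at 0 in 3 of 6 libraries, a ratio of the calprotectin subunits could not be formed. S100P, a secreted ligand of AGER first described in placenta, had 0 counts in 5 libraries and 1 count in DOX-positive replicate 3. S100A14, known from differentiated epithelium, had 3, 4 and 3 counts and then 4, 4 and 6. A count of 0 allows up to 3 counts, which was from 0.129 to 0.199 CPM in these libraries, counting error only. A fall or a small rise in these 4 genes was not detectable at this depth.

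Outside the 10 genes, a close relative did rise. S100A16, a widely expressed member at chr1:153606883-153613137 (minus strand), had 69.5, 82.8 and 82.7 CPM without DOX and 135, 123 and 134 with DOX. The lowest DOX-positive library was well above the highest DOX-negative one. S100A16 rose 1.67-fold (log2 fold change 0.74, SE 0.0763, edgeR adjusted p = 2.24e-07). On the deposited TPM, where all genes are shifted down, it was 0.34 and not called (limma adjusted p = 0.423), and 0.71 after the rescaling (adjusted p = 0.000312). S100A13, which takes part in the release of FGF1, was at 26.2 ± 0.750 CPM in the DOX-negative libraries and 27.9 ± 2.51 in the DOX-positive ones (SD, n = 3; log2 fold change 0.083, SE 0.0950, edgeR adjusted p = 0.564).

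The remaining relatives were nearly silent. S100A1, a muscle-enriched member, had counts of 5, 4 and 3 without DOX and of 1, 0 and 0 with it. The groups did not overlap, which in CPM held for 39.8% of all genes tested, but the S100A1 counts were too few for the edgeR test. With no filter edgeR called 0 of these relatives lower, and of all settings tried only limma on the rescaled TPM called S100A1 lower. S100A1 lies opposite S100A13 over 3435 bases. S100A5 had 2 counts over all libraries, and S100A12 and S100Z had 1 each. S100A7, S100A7A, S100A7L2, S100B and S100G had 0 counts in every library. Of the 11 relatives, 2 could be tested and 1 rose, beside 26.7% of all genes called (13% higher). That number is too small to be a result about the relatives. The fused-type S100 genes, which build the cornified layer of skin, had 1 tested gene of 7, TCHH (0.33, edgeR adjusted p = 0.328).

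The main partner of S100A10 rose, whereas S100A10 itself was not called. ANXA2, annexin A2, binds S100A10 to form the membrane heterotetramer that holds plasminogen at the cell surface. ANXA2 was at 1661, 1661 and 1815 CPM without DOX and 2251, 2269 and 2217 with DOX. Its groups were far apart beside the spread within them. ANXA2 rose (log2 fold change 0.39, SE 0.0638, edgeR adjusted p = 8.84e-05), but on the deposited TPM scale it was -0.00071. Counts assigned to 3 genes named as pseudogenes of ANXA2 held from 4.20% to 5.04% of their sum with ANXA2. How many reads could belong to either was not measured.

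The ratio of ANXA2 to S100A10 counts within a library needs no scaling between libraries. It was 6.47, 6.03 and 6.48 without DOX and 8.93, 10.3 and 7.95 with DOX. Each DOX-positive ratio was above each DOX-negative ratio. The ratio was 1.42-fold higher, 0.51 on the log2 scale, with an exact two-sided permutation p of 0.1, the smallest that 3 against 3 libraries allow. Leaving out each library in turn gave between 0.41 and 0.60, and the deposited TPM also gave 0.51. As the ratio is of transcripts, not proteins or transcript copies per cell, it does not say how much heterotetramer was present.

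**Figure D4:**
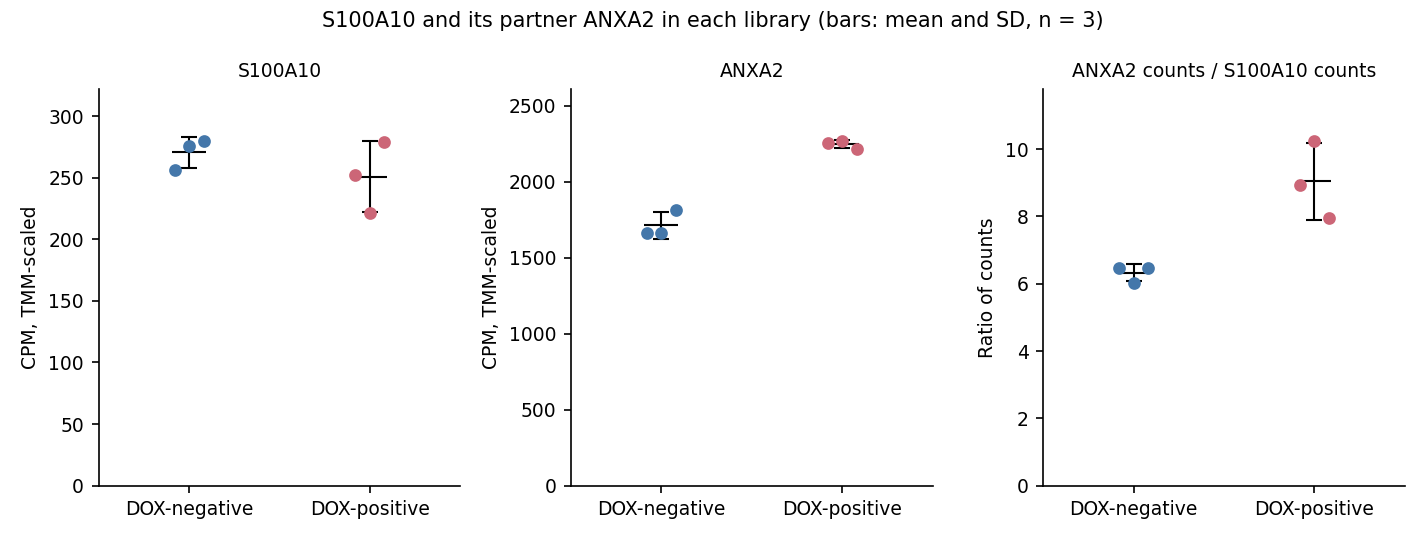
S100A10 and ANXA2 levels (CPM, TMM-scaled) and the ratio of their counts in each library, with mean and SD (n = 3); all axes start at 0. S100A10 dots overlap between the groups, whereas the ANXA2 dots and the ratio are higher in all 3 DOX-positive libraries.

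Other proteins that S100 proteins bind were also measured. Among 23 partners and receptors, 19 were tested, 7 rose and 4 fell, with a median log2 fold change of 0.037. That is 57.9% of those tested, beside 26.7% of all genes (13% higher, 13.7% lower). AHNAK, the giant scaffold bound by the annexin A2 and S100A10 complex, rose by 0.57 (SE 0.0906, edgeR adjusted p = 7.36e-05). DLC1, a GTPase-activating protein that S100A10 binds, rose by 0.52 (adjusted p = 3.87e-06). PLAUR, the urokinase receptor of the same plasminogen system, rose by 0.55 (adjusted p = 2.20e-05). EZR (ezrin), a membrane-cytoskeleton linker that S100P binds, rose by 0.40 (SE 0.0591, adjusted p = 2.43e-05). MYH9, the nonmuscle myosin heavy chain bound by S100A4, passed narrowly at 0.21 (SE 0.0744, adjusted p = 0.0408). That call was lost with a replicate block (adjusted p = 0.0899), with library totals (0.0966) and without each of 4 libraries in turn (0.131 to 0.179 without DOX-negative replicate 1 or 3, or DOX-positive replicate 1 or 3).

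The 4 partners that fell were CACYBP, FKBP4, STIP1 and S100PBP, while only 2 of the list were called lower after leaving out either library numbered 2 (DOX-negative or DOX-positive). CACYBP, the calcyclin-binding protein of S100A6, fell by 0.32 (SE 0.0737, edgeR adjusted p = 0.00261). FKBP4, an immunophilin co-chaperone of HSP90, fell by 0.57 (adjusted p = 1.29e-05), and the co-chaperone STIP1 by 0.21 (adjusted p = 0.0220, or 0.0574 with a replicate block). S100PBP, the nuclear S100P-binding protein, fell by 0.30 (adjusted p = 0.0254) while S100P itself was at the floor. BSG (basigin), a receptor for S100A9, was well expressed at 193 to 255 CPM (-0.051, SE 0.0802, adjusted p = 0.691). Transcripts of AGER and TLR4 were low. AGER was at 5.12, 4.96 and 3.63 CPM without DOX and 3.31, 4.07 and 4.77 with DOX (-0.19, SE 0.207, adjusted p = 0.552), and TLR4 had 2 counts over all 6 libraries.

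Annexins, the calcium-dependent membrane proteins that several S100 dimers bridge, were called in both directions. Of 13 annexins, 9 were tested, 5 rose and 1 fell (66.7% called, beside 26.7% of all genes), with a median of 0.33. Beside ANXA2, ANXA1 rose by 0.44 (edgeR adjusted p = 1.40e-05), ANXA3 by 0.40 (adjusted p = 3.89e-05) and ANXA5 by 0.33 (adjusted p = 0.000436). ANXA6 fell by 0.47 (adjusted p = 7.18e-05). The difference in the share of annexins and S100 genes called was not tested. Among 52 other EF-hand proteins, 39 were tested, 4 rose and 9 fell, with a median of -0.0067. The share called, 33.3%, was near the 26.7% of all genes and is no result about the list. LCP1, the actin-bundling plastin of leukocytes, rose by 1.25 (adjusted p = 0.000464), and CAPN2, the large subunit of m-calpain, by 0.60 (adjusted p = 1.76e-07). CIB1 and CIB2, calcium- and integrin-binding proteins, fell by 0.87 (adjusted p = 6.41e-07) and 0.67 (adjusted p = 0.000413).

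In the chromosome 1q21 region, genes called higher, genes called lower and genes not called stood side by side. RefSeq genes from 200 kb before the first S100 gene to 200 kb after the last gave 65 neighbours in the count table, of which 41 had 0 counts in every library and 10 were tested. Of these, 1 rose and 3 fell, 4 of 10 beside 26.7% of all genes, a number too small to set the region apart. THEM4, a mitochondrial thioesterase beside S100A10, rose by 0.55 (edgeR adjusted p = 1.36e-05). The noncoding FLG-AS1 fell by 0.77 (adjusted p = 0.000421), the fatty acid transporter SLC27A3 by 0.77 (adjusted p = 0.00736) and INTS3, an Integrator subunit, by 0.23 (adjusted p = 0.00850). S100A16 lay between S100A2 (-0.33) and S100A13 (0.083), which were not called.

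**Figure D5:**
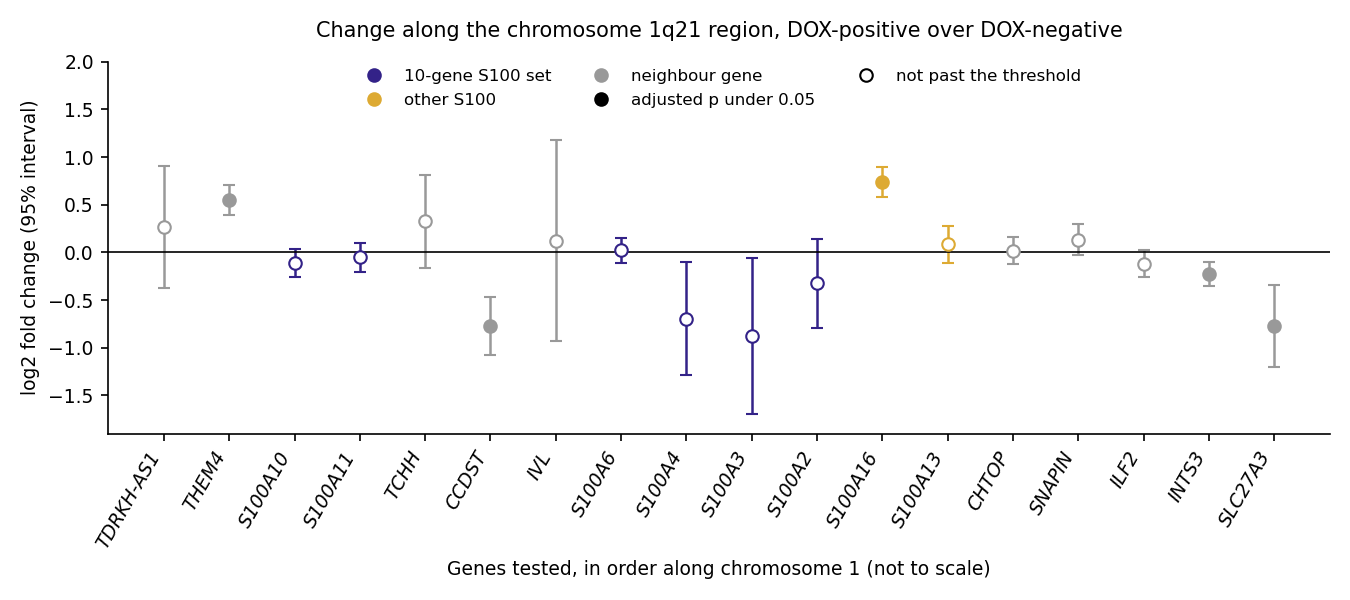
Log2 fold change (edgeR, 95% intervals) of each tested gene of the 1q21 region, in chromosome order and not to scale; filled points have an adjusted p under 0.05. Genes called higher (THEM4 and S100A16) and lower (FLG-AS1, shown under its RefSeq symbol CCDST, INTS3 and SLC27A3) stand among genes that were not called.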

How the data were processed

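Total RNA of triplicate cultures was sequenced by the authors as poly(A)-selected stranded libraries. The authors deposited whole-number read counts for 28008 genes and TPM values for 25546 genes. The submitters' processing notes name STAR, DESeq2 and GRCh38 (hg38), and the counting step and annotation are not given in the sources used here. The labels do not say how the triplicates were separated, so p-values measure the spread between these samples, which may be technical.

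Counts were filtered with filterByExpr, scaled with TMM (factors 0.986 to 1.03) and tested two-sided with edgeR 4.0.16 (glmQLFit, glmQLFTest) in R 4.3.3, with the group as the only term and Benjamini-Hochberg adjustment over 14292 genes at 0.05. Standard errors are the absolute log2 fold change over the square root of F. Alternatives used DESeq2 1.42.0 (the authors' tool) and limma 3.58.1 on log2(TPM + 1) and log2(TPM + 0.1), for genes with a TPM of at least 1 in 3 libraries. The added constants shrink the change of low genes, but the deposited TPM shifted the median of all genes to -0.35 and -0.39. S100A2, S100A3 and S100A4 had more negative changes there than with edgeR. Fits were also run on counts simulated with edgeR's own fitted dispersions, which does not show how they perform on these libraries. Library pairs differed by more than sampling noise (chi-square per degree of freedom 3.78 to 20.2). Same-numbered libraries did not deviate together (correlations -0.019, -0.095 and -0.027). Columns matched titles by DOX state and number, and 0 columns were unmapped. Symbols were matched to RefSeq tables (GRCh38.p14), and overlaps were read from GENCODE 29.

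The members and gene lists were chosen with earlier results of these data known. Named genes were the members, the other S100 genes, MUC1, up to 4 called genes with the largest change in each list, and ANXA2, AHNAK, AGER, TLR4, EZR, CACYBP and MYH9 whatever their values. STIP1, S100PBP, ANXA5, BSG, TCHH, IVL, COL1A1 and DCN were named after their values were seen. Part of the luminal prostate list is not reported here. The rule for 1q21 neighbours was set after the data were seen.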

Additional observations from a re-analysis of the deposited data

How the results depend on the processing

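The 16 alternatives comprised 15 planned ones and TPM rescaled without 5 short noncoding RNAs, which was chosen after seeing the data. The number of members called, and called lower, was 0 with edgeR and became 2 (S100A3 and S100A4) with log2(TPM + 1), with log2(TPM + 0.1) and with the rescaled TPM, and 0 to 2 on leaving out each library, 2 being without DOX-positive replicate 2. The deposited TPM also called 295 and 311 genes in all, and 2 and 2 genes of the related lists in place of 34. It shifted the median of all genes to -0.35 and -0.39, that of the members to -0.56 and -0.61, and higher calls to 6.78% and 7.07% of calls, beside 48.8% with TMM and 39.3% with library totals. S100A6 turned to -0.37 with either pseudocount, to -0.012 with library totals, to -0.0012 without DOX-negative replicate 1 and to -0.019 without DOX-positive replicate 3, in a range of -0.019 to 0.070 over libraries left out. S100A13 turned to -0.30 and -0.31, ANXA2 to -0.00071 and -0.00069, and MYH9 to -0.18 and -0.18 on the TPM scales; the cause was not tested beyond the rescaling, which brought ANXA2 back to 0.37. With the replicate number as a block, 3158 genes and 0 members were called, and ANXA11, MYH9, PLAU and STIP1 lost their calls (adjusted p 0.0574 to 0.0922). Depth limits S100A8, S100A9, S100A14 and S100P; with no filter all 10 members were tested and 0 were called.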

Other observations

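Keratinocyte genes of the epidermal differentiation region were almost silent in both groups. A list of 33 genes of the region was read, most of them for the cornified envelope, which crosslinks into the barrier of skin. Of these, 28 had 0 counts in every library. Only 1, IVL (involucrin), was tested (log2 fold change 0.12, SE 0.508, edgeR adjusted p = 0.891). Among stromal markers, COL1A1 had between 66 and 96 counts and DCN at most 1 count a library.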
